A study of Rattus norvegicus with 22 samples.

Results

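This account describes 65 genes for leukocyte surface molecules, pattern recognition receptors, complement proteins and caspases in the cortex of rats 24 h after a penetrating brain injury. The members were chosen by name, from the symbols that pair Ensembl identifiers with gene names in the study's own list of genes called in the ipsilateral hemisphere. Of the 1774 identifiers so named, 69 had a symbol of the Tlr, Clec, Fcgr, Fcer, C1, C3, C5, Cd, Siglec, Lilr, Pilr, Nlr, Trem, Ly, Ms4a or Casp families or were Tyrobp, Ptprc or Pycard, and 65 remained once Fcgr1a, Siglec5, Siglech and Cd99l2 were set aside. The count table holds 32545 identifiers, 23572 of them with counts. Because the list was selected on the difference between injured and sham rats in the ipsilateral hemisphere, that difference is given below as a description, and no test of it is read. The contralateral hemisphere, which the list did not use, is tested.

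The animals were 11 adult male Sprague-Dawley rats, a strain the labels spell Sprague-Daley, all fitted with electrodes for EEG. Penetrating ballistic brain injury (PBBI), in which a probe is inserted through the right frontal pole and a balloon is briefly inflated, was given to 6 rats, and 5 sham rats went through the surgery with no probe inserted. Cortical RNA came from the ipsilateral (right) and contralateral hemisphere of each rat, which gave 22 samples. The injury opens a cavity in the tissue and the samples can hold blood cells, and in bulk RNA more cells of a type and more RNA per cell cannot be told apart.

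Cells of the innate immune system carry receptors for molecules of microbes and of damaged cells. Toll-like receptors and C-type lectins bind such molecules at the surface, NOD-like receptors sense them in the cytosol and build inflammasomes that activate caspases, and Fc and immunoglobulin-like receptors signal through or against adaptors with an ITAM, a short activating motif. In the brain microglia carry many of these genes, as do the neutrophils and monocytes that enter after injury. CD antigens are surface molecules used to tell leukocytes apart, and several are also found on endothelium or glia.

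Total counts were between 42085341 and 63412426 per sample. The ipsilateral library of PBBI rat 85 stood apart, with a TMM scaling factor of 0.729 against 0.900 to 1.21 in the other 21 libraries and 18012 genes with counts, the fewest of the 22. Of the marker lists, 7 of 12 neutrophil genes could be named, and their summed level was 10.4 to 62.3 CPM (counts scaled to the size of the library after TMM normalization) in ipsilateral sham and 34.3 to 252 CPM in ipsilateral PBBI samples. For 8 of 12 monocyte and macrophage genes the sums were 156 to 271 and 289 to 1462 CPM. For 3 of 10 T cell genes, all members here, they were 0.128 to 1.91 and 2.78 to 9.76 CPM, and for 2 of 5 B cell genes 0.0261 to 0.148 and 0.118 to 0.582 CPM. The astrocyte genes went in opposite directions ipsilaterally: Gfap had 576 ± 230 CPM in sham (SD, n = 5) and 4567 ± 2300 CPM in PBBI (SD, n = 6), and Aldh1l1 14.2 ± 3.9 and 7.26 ± 1.60 CPM. The endothelial gene Vwf had 15.0 ± 3.4 and 35.2 ± 8.6 CPM. Of the microglial genes Tmem119 and Siglech were named, and they too went in opposite directions. Tmem119 had 31.6 ± 6.2 CPM in sham and 16.7 ± 6.6 CPM in PBBI, and Siglech 0 to 0.0380 CPM and 0.0145 to 0.358 CPM. The neutrophil gene Elane and the B cell gene Pax5 were at 0 in every ipsilateral sham sample. Names come from the called genes, so the named markers are not a neutral sample of each list, and their part in the values below was not tested.

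Promoter windows, 250 bases before to 50 after a RefSeq start, were found for 46 of the 65 members in assembly GRCr8. The letters AGGAAGT on either strand, a site of the type bound by PU.1, an ETS factor of myeloid cells, were present in 10 of the 46 (21.7%) and in 8.92% of the 27457 genes with such windows. These 10 were C1qb, Casp1, Cd300a, Cd300e, Fcgr3a, Ms4a12, Ms4a6a, Ms4a6c, Ptprc and Pycard. In 1 of the members' 54 windows the match overlapped another motif searched. Shown here are the windows of Ms4a6a and Ms4a6c, genes of the same cluster with 4 coding genes between them, both among the 12 members with a low unadjusted p in the contralateral hemisphere described below, and of Ptprc (CD45), the phosphatase found on all leukocytes. Capitals mark AGGAAGT or its reverse complement. The Ms4a6a window is chr1:217839524-217839823 on the minus strand, the Ms4a6c window chr1:217578018-217578317 on the plus strand, and the Ptprc window chr13:52259697-52259996 on the minus strand, all in GRCr8. Ms4a6c has 7 windows in the table, and 2 of them, the one shown included, hold the match.
Ms4a6a: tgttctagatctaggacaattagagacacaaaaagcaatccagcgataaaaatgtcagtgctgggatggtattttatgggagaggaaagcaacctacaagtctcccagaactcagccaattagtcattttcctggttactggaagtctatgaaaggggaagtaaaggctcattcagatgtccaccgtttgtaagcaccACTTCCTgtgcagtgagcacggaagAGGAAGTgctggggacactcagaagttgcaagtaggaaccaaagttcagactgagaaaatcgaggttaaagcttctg
Ms4a6c: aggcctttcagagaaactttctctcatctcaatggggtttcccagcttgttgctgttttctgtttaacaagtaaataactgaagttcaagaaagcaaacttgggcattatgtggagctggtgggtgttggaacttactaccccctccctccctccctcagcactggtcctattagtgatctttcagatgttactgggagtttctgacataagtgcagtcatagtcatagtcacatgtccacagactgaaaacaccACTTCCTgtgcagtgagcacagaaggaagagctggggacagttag
Ptprc: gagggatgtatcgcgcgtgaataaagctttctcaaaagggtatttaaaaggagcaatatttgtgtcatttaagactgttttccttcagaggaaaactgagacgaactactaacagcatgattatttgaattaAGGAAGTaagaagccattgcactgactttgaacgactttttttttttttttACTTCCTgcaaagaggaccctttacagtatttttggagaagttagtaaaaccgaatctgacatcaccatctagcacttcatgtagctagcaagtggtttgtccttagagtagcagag
The Ms4a6a and Ms4a6c windows share an unbroken run of 24 bases around the match, caccACTTCCTgtgcagtgagcac, while the Ptprc window holds its 2 matches in other surroundings. The IRF letters GAAANNGAA were in 17.4% of the members and 10.3% of all genes, the C/EBP letters TTNCNNAA in 52.2% and 42.7%, and the AP-1 letters TGANTCA in 10.9% and 8.04%. The kappa B letters GGGANTTTC were in 2.17% and 1.23%, the STAT letters TTCNNNGAA in 8.70% and 9.39% and TATAAA in 10.9% and 15.3%. These are counts of letters on both strands. They do not show that a factor was bound.

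Some members lie close together in the genome. In RefSeq gene order, 29 of them lay in 11 groups with at most 5 coding genes between neighbours, of 64 that could be placed. The members were chosen by the names of gene families and no share over all genes was counted, so nothing is read from this number. The largest held Clec4a1, Clec4a3, Clec4a2, Clec4d, Clec4e, Cd163 and C1rl, and a second held Cd69, Clec12a, Clec9a and Clec7a. Within Clec4a1 to Clec4a3, Fcgr2b and Fcgr3a, Ms4a6a and Ms4a6c, Lilrb3 and Lilrb4 and the Cd300 genes, related sequences could share reads, so the split of counts between such genes is uncertain.

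In the ipsilateral hemisphere, 60 of the 62 members that passed the filter on low counts were higher in PBBI than in sham rats, and 2, Cd34 and Casp9, were lower. The median log2 fold change was 2.11 over these members, with a range of -1.16 to 5.20, and -0.02 over the 16104 genes tested. The adjusted p of edgeR's quasi-likelihood fit was at or under 0.05 in 36 members, all higher, and in 659 genes (4.09%) overall that were higher. Every PBBI rat was above every sham rat in 25 members and in 548 genes (3.40%) overall. The list was selected on this contrast, so these counts describe the selection and nothing is read from them. The count of 36 also fell when most rats were left out in turn, as did that over all genes, 753 in either direction. Each such fit also has a sample fewer, so a fall need not be due to the rat left out. The members' count was 20, 19, 22 and 18 without PBBI rats 81, 88, 90 and 96, and that over all genes 393, 394, 459 and 435. Without sham rats 82, 84, 86 and 91 the members' count was 12, 19, 16 and 15, and that over all genes 359, 355, 396 and 316. Without PBBI rat 85 these counts were 46 and 2186. Over all genes the count was 1158 without PBBI rat 83 and 465 without sham rat 94. Cd3d and Ly6d were among the members that did not pass the filter. The members nearest to no difference were Casp9, at -0.68 ± 0.20 (SE), and Cd82, at 0.72 ± 0.23. Genes just outside the study's threshold carry no name in the key and are not given.

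**Figure D1:**
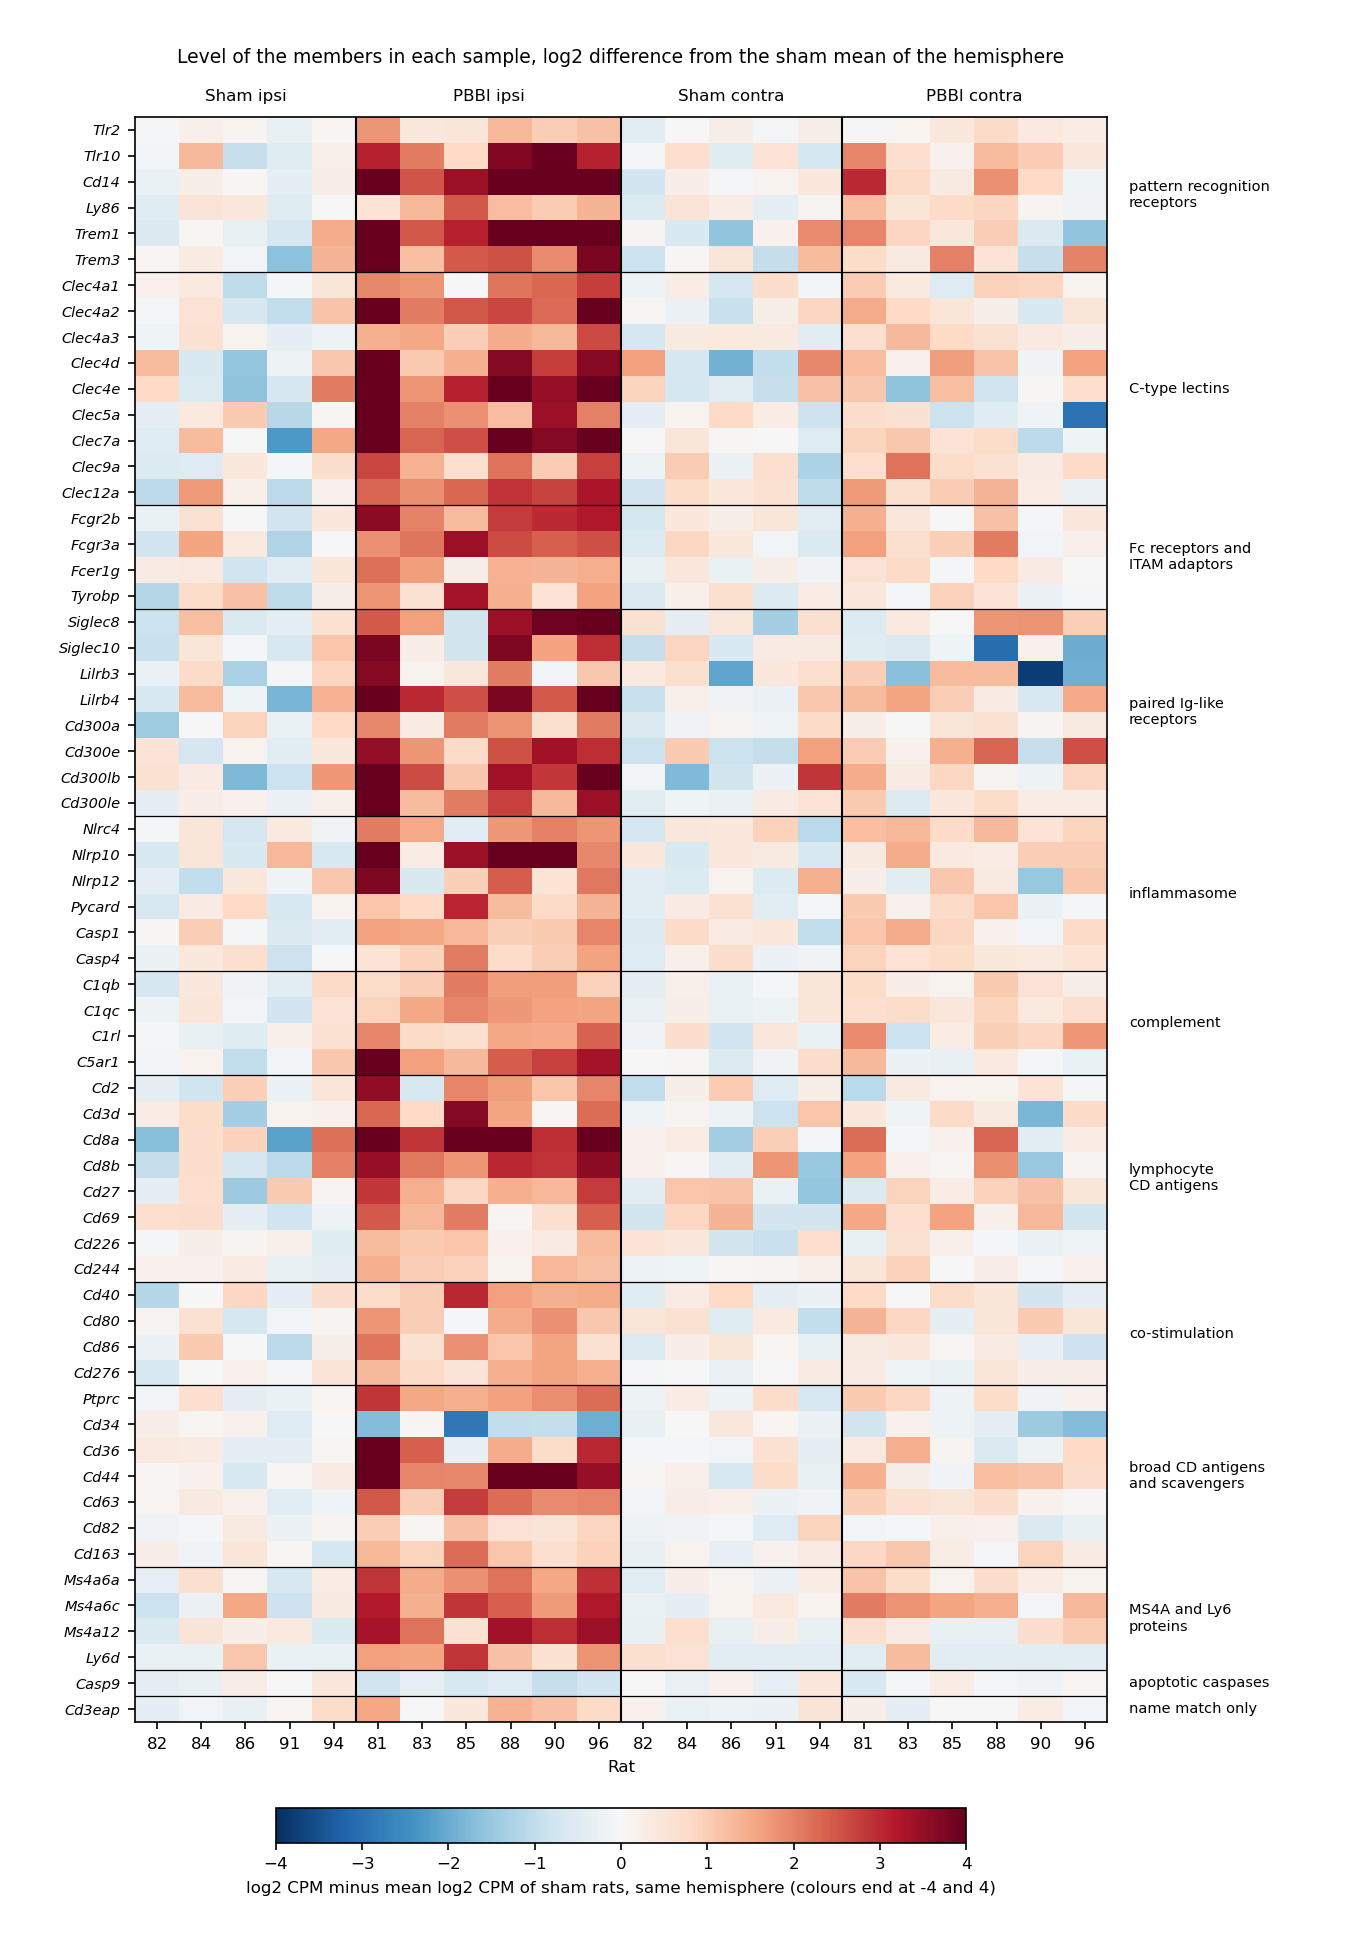
Each row is a member, grouped by class, and each column a sample, named by rat number. A few members are not drawn. The colour is the log2 CPM of the sample minus the mean log2 CPM of the sham rats of the same hemisphere, with colours ending at -4 and 4. The 6 ipsilateral PBBI columns are red in nearly all rows, Cd34 and Casp9 are blue or near white there, and the contralateral PBBI columns are paler, with rat 81 the highest contralateral PBBI rat in 22 of 65 members.

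All 6 pattern recognition receptors were higher in ipsilateral PBBI, with the highest class median, a log2 fold change of 2.97. Cd14, the co-receptor that hands bacterial lipopolysaccharide to the Toll-like receptor 4 complex, had 0.854, 1.22, 1.10, 0.797 and 1.25 CPM in the ipsilateral sham rats 82, 84, 86, 91 and 94. In the 6 ipsilateral PBBI rats it had 5.99 to 103 with a median of 27.9 CPM. The lowest injured rat was thus well above the highest sham rat, and the log2 fold change was 5.17 ± 0.71. Trem1, an activating receptor that amplifies the responses of neutrophils and monocytes, had 0.0371, 0.0761, 0.0523, 0.0319 and 0.264 CPM in sham and 0.562 to 10.4 with a median of 2.64 CPM in PBBI rats. Its groups did not overlap, at a log2 fold change of 5.20 ± 0.90. Tlr2, the receptor for bacterial lipoproteins, differed less but without overlap, with 8.39, 10.2, 9.59, 7.27 and 9.45 CPM in sham and 12.1 to 30.4 with a median of 18.9 CPM in PBBI rats. Tlr10, Ly86 (the MD-1 partner of the Toll-like protein RP105) and Trem3 had log2 fold changes of 2.98 ± 0.62, 1.41 ± 0.36 and 2.97 ± 0.73. Ly86 showed no overlap, whereas PBBI rat 85 lay within the sham range for Tlr10 and PBBI rat 83 for Trem3.

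All 9 C-type lectins were higher, with a median of 2.66. Clec7a (Dectin-1, the receptor for fungal beta-glucan) had 1.41, 4.91, 1.99, 0.383 and 5.99 CPM in ipsilateral sham and 10.2 to 44.0 with a median of 31.0 CPM in PBBI rats. The groups did not overlap although the sham rats themselves spanned 0.383 to 5.99 CPM. Clec4e (Mincle, which binds mycobacterial glycolipid and a protein of dying cells) and its partner Clec4d (MCL) had the largest folds of the class, at 4.57 ± 1.09 and 3.71 ± 0.94. Both overlapped through PBBI rat 83, which had 0.325 CPM of Clec4e against 0.396 CPM in sham rat 94, and 0.799 CPM of Clec4d against 0.928 CPM in sham rat 82. PBBI rat 81 carried the highest values, 10.4 CPM of Clec4e and 23.4 CPM of Clec4d. Clec4a3, a lectin of the DCIR group, had 4.44, 7.74, 5.62, 3.87 and 4.40 CPM in sham and 10.1 to 31.7 with a median of 13.9 CPM in PBBI rats, the highest being rat 96. Clec4a2, Clec5a and Clec12a also separated the groups, and Clec4a1 and Clec9a did not. Their log2 fold changes lay between 1.95 ± 0.44 for Clec4a1 and 3.12 ± 0.60 for Clec4a2.

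**Figure D2:**
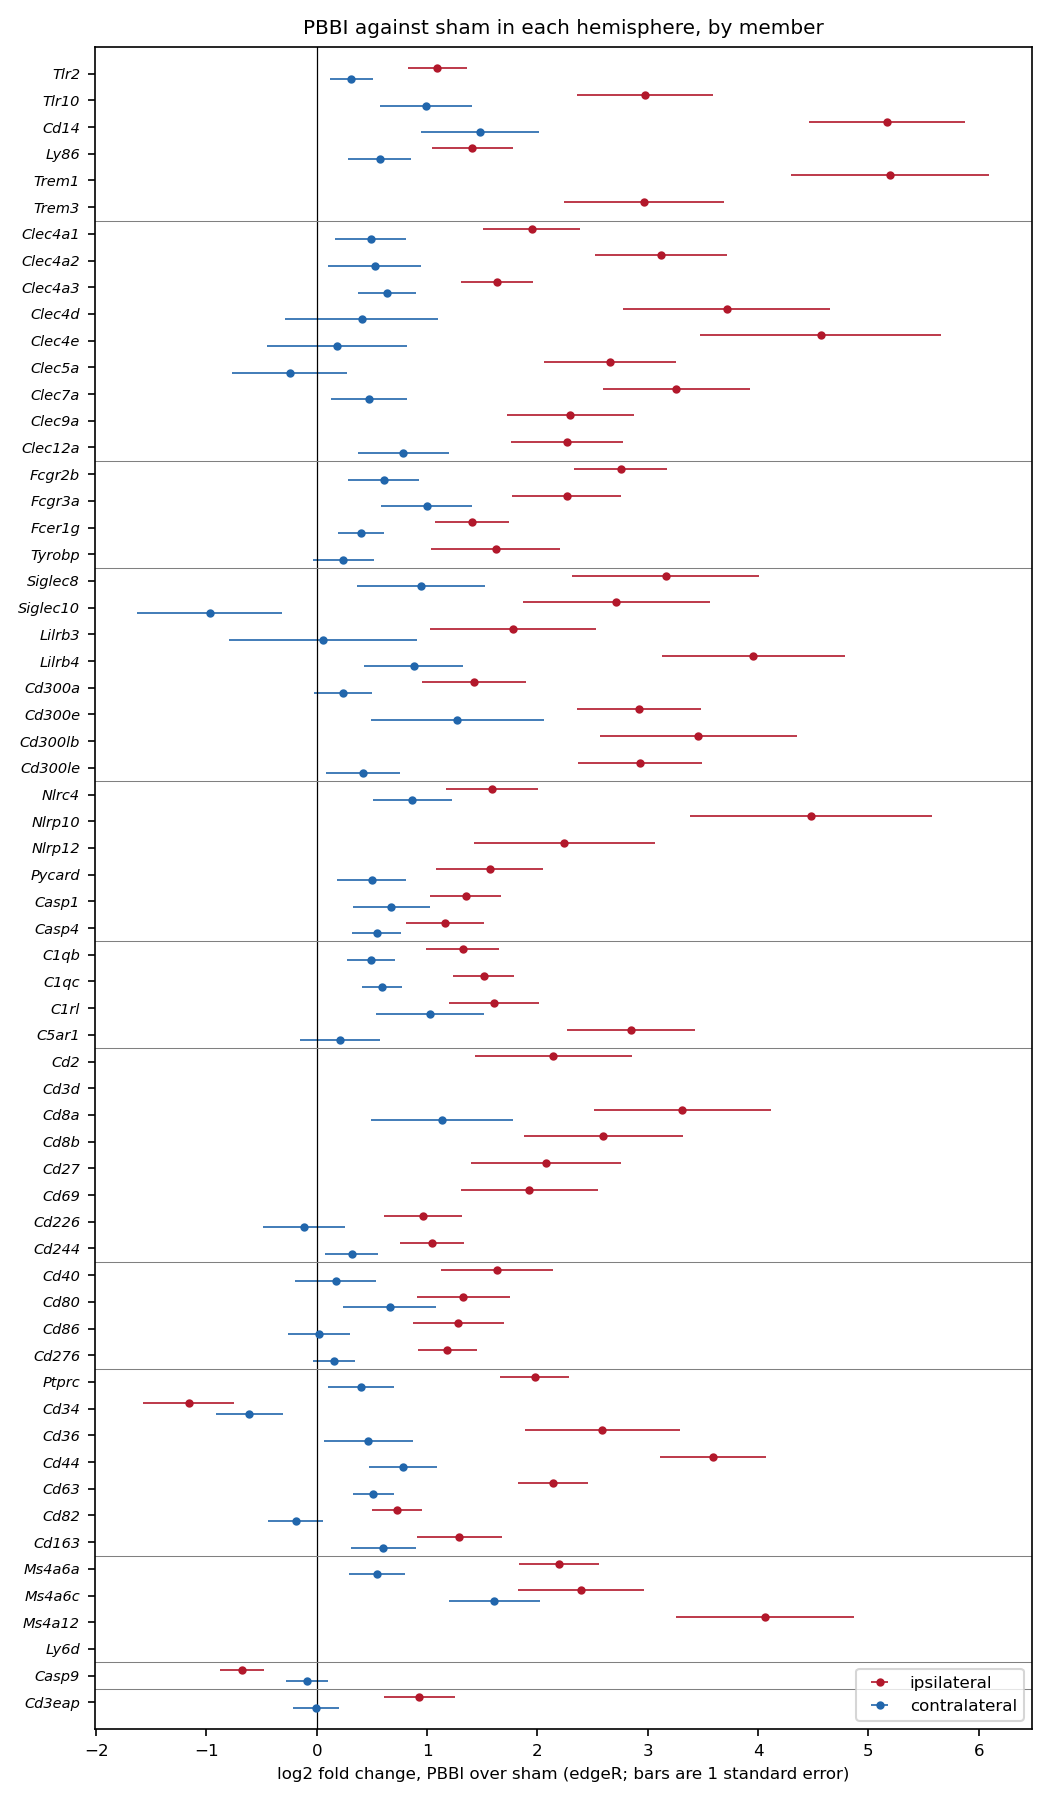
Points are log2 fold changes of PBBI over sham from edgeR for each member, ipsilateral in red and contralateral in blue, with bars of 1 standard error, and grey lines between the classes. Ipsilateral points reach 5.20 and contralateral points stay at or under 1.61, most of them to the right of 0. Members below the filter on low counts have no point, and a few members are not drawn.

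Among the Fc receptors, Fcgr2b, the inhibitory IgG receptor, had 4.73, 8.60, 5.59, 3.32 and 7.65 CPM in ipsilateral sham and 13.6 to 69.5 with a median of 42.2 CPM in PBBI rats. The activating receptor Fcgr3a had 2.41, 12.5, 5.44, 1.80 and 4.19 CPM and 14.9 to 44.6 with a median of 23.5 CPM. Neither gene overlapped between groups, with log2 fold changes of 2.75 ± 0.42 and 2.26 ± 0.50, though sham rat 84 set the top of the sham range in both and Fcgr3a was at 2.86 without it. The ITAM adaptors Fcer1g, the common gamma chain of Fc receptors, and Tyrobp (DAP12) were among the members with the highest levels per length, at 85.3 and 260.4 CPM per kb of gene model in ipsilateral PBBI. Fcer1g had 24.2, 25.2, 11.1, 14.2 and 26.7 CPM in sham and 22.3 to 88.7 with a median of 51.0 CPM in PBBI rats, and Tyrobp 19.4, 71.6, 95.0, 21.1 and 50.3 CPM and 62.8 to 425 with a median of 122 CPM. Both adaptors overlapped between groups.

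The adaptors parted in a pair of rats, a pattern noticed after the values were seen. PBBI rat 85 had the highest Tyrobp of the ipsilateral PBBI rats, 425 CPM, and the lowest Fcer1g, 22.3 CPM, a ratio of 19.1 against 1.06 to 2.51 in the other 5 rats. Sham rat 86 did the same in its own group, with 95.0 and 11.1 CPM and a ratio of 8.60 against 0.799 to 2.84. In the contralateral hemisphere these same animals again had the highest ratios of their groups, 3.74 for rat 85 against 1.09 to 1.79, and 3.52 for rat 86 against 1.08 to 2.51. Other members split in the same rats, but such ranks were not counted over all genes, so the split cannot be called particular to these members. Rat 85 was the highest ipsilateral PBBI rat in 14 members, among them C1qb, C1qc, Casp4, Cd40, Cd63 and Pycard, and the lowest in 24, among them Cd44, Ptprc, Fcgr2b, Tlr10 and C5ar1. Of the 14, sham rat 86 was the highest ipsilateral sham rat in 8, and of the 24 it was the lowest in 12 and the highest in 0. It was the lowest in 1 of the 14. Over all 65 members sham rat 86 was the highest ipsilateral sham rat in 12 and the lowest in 17. The library of rat 85 is the one with the lowest scaling factor, and that of rat 86 has the lowest total count. Each ratio divides values of the same library, so the scaling factor and the total count cancel out of it. What sets the ratio was not tested. Without both rats the ipsilateral median log2 fold change was 2.00.

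**Figure D3:**
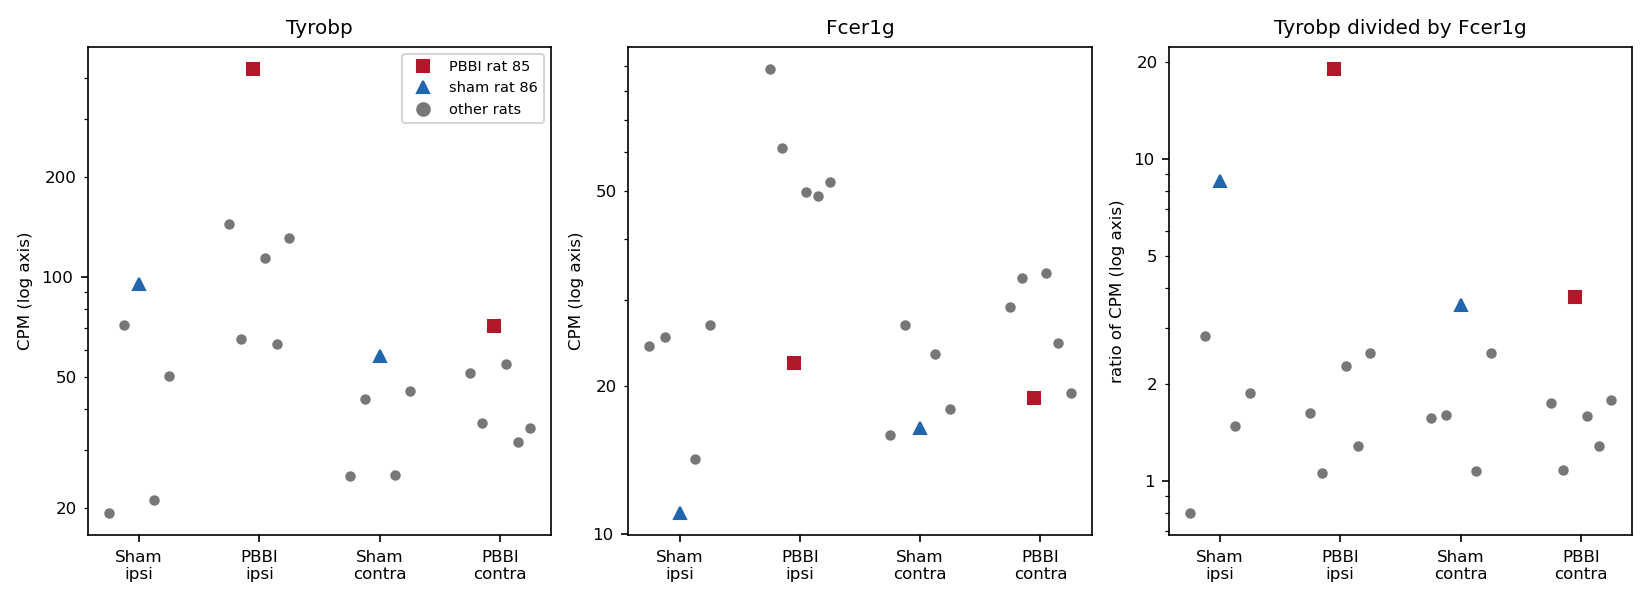
The left and middle panels plot the CPM of Tyrobp and Fcer1g and the right panel their ratio, on log axes, with 1 point for each rat in the 4 groups. PBBI rat 85 (red square) and sham rat 86 (blue triangle) have the highest ratio of their group in both hemispheres, 19.1 and 8.60 ipsilaterally and 3.74 and 3.52 contralaterally.

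The paired immunoglobulin-like receptors, in which activating and inhibitory forms sit side by side in the genome, had a median of 2.92 over 8 members. Lilrb4, an inhibitory receptor, had 0.613, 2.32, 0.836, 0.239 and 2.56 CPM in ipsilateral sham and 5.42 to 45.4 with a median of 10.6 CPM in PBBI rats, with no overlap and a log2 fold change of 3.96 ± 0.83. Rats 81 and 96 were above 44 CPM while the other 4 PBBI rats were at or under 13.4 CPM. Cd300lb, an activating receptor, was at 3.46 ± 0.89, with 0.148, 0.114, 0, 0.0319 and 0.363 CPM in sham and 0.219 to 3.90 with a median of 0.996 CPM in PBBI rats, and overlapped through rat 85. Cd300a, an inhibitory receptor for phosphatidylserine, was at 1.43 ± 0.47, with 0.928 to 4.70 CPM in sham and 3.19 to 11.0 CPM in PBBI rats. Cd300e and Cd300le did not overlap. Siglec8, Siglec10 and Lilrb3 had standard errors of 0.75 to 0.85 on log2 fold changes of 1.78 to 3.16, and their groups overlapped.

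The 6 members of the inflammasome class were all higher, with a median of 1.58, and the groups overlapped in each. Pycard (ASC), the adaptor on which inflammasomes assemble, had 3.80, 7.53, 10.3, 3.87 and 6.61 CPM in sham and 10.1 to 50.1 with a median of 13.7 CPM in PBBI rats, the highest value being that of rat 85. Its log2 fold change was 1.57 ± 0.48. Casp4, the caspase of the non-canonical inflammasome, was at 1.16 ± 0.35, and Casp1, which matures interleukin-1 beta, at 1.35 ± 0.32. The NOD-like receptor Nlrp10 had 0, 0.0380, 0, 0.0957 and 0 CPM in sham, where its counts were between 0 and 6, and 0.0296 to 1.30 with a median of 0.652 CPM in PBBI rats, where they were between 2 and 90. Nlrp12 was at 2.24 ± 0.82 and Nlrc4 at 1.59 ± 0.42.

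All 4 complement members were higher, with a median of 1.56, and 3 of them separated the groups. C1qb and C1qc, chains of the C1q molecule that starts the classical pathway, were among the highest members per length, at 45.7 and 38.8 CPM per kb in ipsilateral sham and 114 and 110.2 in PBBI. C1qc had 34.6, 56.3, 37.2, 23.2 and 60.1 CPM in sham and 74.8 to 156 with a median of 121 CPM in PBBI rats, without overlap, at a log2 fold change of 1.51 ± 0.28. C1qb had 29.1, 62.0, 42.4, 34.7 and 79.4 CPM and 77.1 to 189 with a median of 118 CPM, and the injured rat 81 lay below sham rat 94. C5ar1, the receptor for the anaphylatoxin C5a, was higher by 2.84 ± 0.58 on the log2 scale, with 1.17, 1.41, 0.627, 1.18 and 2.74 CPM in sham and 3.22 to 25.5 with a median of 7.78 CPM in PBBI rats. C1rl, a C1r-like protease, was at 1.61 ± 0.41, with 0.261 to 0.594 CPM in sham and 0.613 to 2.07 CPM in PBBI rats.

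**Figure D4:**
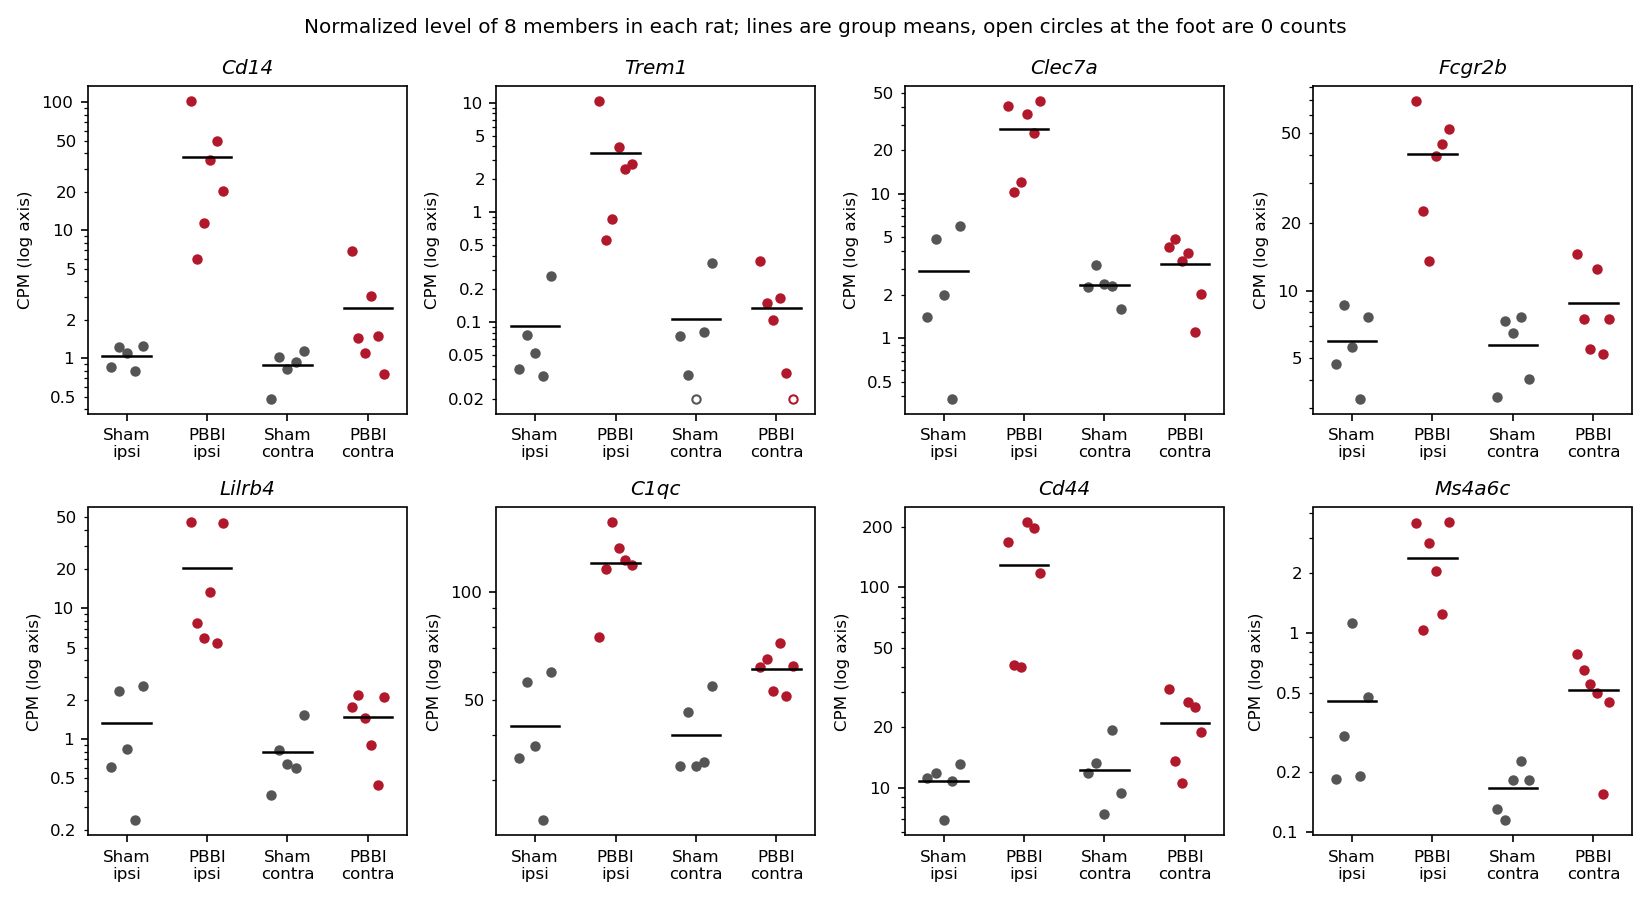
Each panel plots the CPM of a member in every rat on a log axis, sham in grey and PBBI in red, with a line at each group mean and open circles at the foot for a count of 0. In the ipsilateral hemisphere no sham rat reaches a PBBI rat in any panel but that of Ms4a6c, and in the contralateral hemisphere the groups overlap in all 8.

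Of the 9 antigens of lymphocytes, 7 passed the filter, with a median of 2.08, and Cd8a alone separated the groups. This co-receptor of cytotoxic T cells had 0.0557, 0.438, 0.523, 0.0319 and 1.32 CPM in ipsilateral sham and 2.10 to 7.76 with a median of 5.20 CPM in PBBI rats, at 3.31 ± 0.80, and its partner Cd8b was at 2.60 ± 0.72. Sham rat 94 held the highest sham value of both, and without it the log2 fold changes were 4.16 and 3.69. Cd3d, a chain of the T cell receptor complex, had 0 to 0.114 CPM in sham and 0.0576 to 1.09 CPM in PBBI rats. It was below the filter, and its count did not exceed 50 in any sample. Cd244 (2B4), a receptor of the SLAM family, was at 2.10 ± 0.439 CPM in sham (SD, n = 5) and 4.34 ± 1.21 CPM in PBBI (SD, n = 6), with a log2 fold change of 1.04 ± 0.29. Cd2, Cd27, Cd69 and Cd226 lay between 0.96 and 2.14.

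Co-stimulatory molecules had the lowest median of the receptor classes, 1.31. Cd276 (B7-H3) was at 1.18 ± 0.26, with 6.13, 9.34, 10.4, 8.83 and 13.3 CPM in sham and 13.4 to 27.7 with a median of 24.2 CPM in PBBI rats and no overlap, rat 85 being the lowest injured rat. Cd86 and Cd80, ligands of CD28 and CTLA-4, were at 1.28 ± 0.41 and 1.33 ± 0.42, and Cd40, a TNF receptor family member of antigen-presenting cells, at 1.63 ± 0.51. All 3 overlapped.

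Among the broadly expressed antigens, Cd44, the receptor for hyaluronan, had 11.1, 11.8, 6.87, 10.7 and 13.2 CPM in ipsilateral sham and 39.9 to 211 with a median of 143 CPM in PBBI rats, a log2 fold change of 3.59 ± 0.48 with no overlap. Cd63, a tetraspanin of late endosomes, had the highest level per length of all members in ipsilateral PBBI, 366 CPM per kb, with 96.9, 117, 103, 68.9 and 81.8 CPM in sham and 183 to 636 with a median of 395 CPM in PBBI rats. Ptprc was at 1.98 ± 0.31, with 6.01 ± 1.89 CPM in sham (SD, n = 5) and 23.6 ± 9.89 CPM in PBBI rats (SD, n = 6) and no overlap. Cd36, a scavenger receptor for oxidised lipid, was at 2.59 ± 0.70 and overlapped, since rat 85 had 0.306 CPM and sham rat 82 0.520 CPM. Cd163, the macrophage receptor for haemoglobin bound to haptoglobin, did not overlap between groups, at 1.29 ± 0.39. Cd34, a sialomucin of endothelium and blood progenitors, went the other way, with 33.2, 29.3, 31.6, 19.5 and 27.9 CPM in sham and 3.81 to 28.5 with a median of 11.2 CPM in PBBI rats, at -1.16 ± 0.41. PBBI rat 83, at 28.5 CPM, lay within the sham range.

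Of the MS4A membrane proteins, Ms4a6a had 2.90, 5.69, 3.82, 2.34 and 4.52 CPM in ipsilateral sham and 10.3 to 28.0 with a median of 14.9 CPM in PBBI rats, and Ms4a6c 0.186, 0.304, 1.12, 0.191 and 0.478 CPM and 1.04 to 3.60 with a median of 2.44 CPM. The log2 fold change of Ms4a6a was 2.19 ± 0.36, and Ms4a6c overlapped between groups at sham rat 86. Ms4a12 had counts of 0 to 2 in sham and 2 to 38 in PBBI rats, and Ly6d 0 to 2 and 2 to 12. Casp9, the initiator caspase of the mitochondrial pathway of apoptosis, had 52.9, 55.7, 82.8, 68.5 and 91.2 CPM in sham and 36.2 to 55.1 with a median of 42.1 CPM in PBBI rats. Its log2 fold change was -0.68 ± 0.20. Cd3eap matched by name alone: it encodes a subunit of RNA polymerase I, and was at 0.93 ± 0.32.

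The injured rats differed in how far the list was raised. Rat 81 was the highest ipsilateral PBBI rat in 26 of 65 members and rat 96 in 17, while rat 85 was the lowest in 24, and the highest in 14, and rat 83 was the lowest in 21. For the C-type lectins the median log2 difference from the sham mean was 4.06 in rat 81, 3.25 in rat 96, 2.69 in rat 90, 2.67 in rat 88, 1.84 in rat 85 and 1.77 in rat 83. The complement medians spanned less, from 1.25 in rat 83 to 1.96 in rat 96, but single complement members were not even across rats. C5ar1 was at 4.29 in rat 81 and 1.31 in rat 85, while C1qb was at 0.74 in rat 81 and 2.03 in rat 85.

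Other genes of the same pathways, from lists of known pathway members, could be named only where the study had called them, so the ipsilateral calls among them describe that selection. Of 24 genes of Toll-like receptor and kinase signaling 7 were named, and 3 had an adjusted ipsilateral edgeR p at or under 0.05. Of 15 of ITAM signaling 10 were named and 6 had such a p, including the kinases Fgr, at a log2 fold change of 2.77, and Lyn, at 1.38. Of 11 inflammasome genes 4 were named and all 4 had it, among them Il1b at 3.40 and Il18 at 1.36, the cytokines that caspase-1 matures. Of 19 complement genes 3 were named and all 3 had it, the complement receptor chains Itgam, Itgax and Itgb2, at 2.58, 4.97 and 2.30. All 24 named pathway genes were higher in ipsilateral PBBI. In the contralateral hemisphere 0 of the 24 had an unadjusted p under 0.05, against 366 of all 15907 genes tested. At that share few of 24 genes would reach it, so nothing is read from the 0.

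The contralateral hemisphere asks whether the same genes differed away from the wound, in samples the list did not use but from the same rats. Deviations from the group mean in the hemispheres of a rat correlated at r = 0.298 to 0.819 across genes in all 11 rats, so the contralateral samples are not independent of those that chose the list. No member passed the adjusted threshold by edgeR, and neither did any of the 15907 genes tested (0%). DESeq2 called 3 genes and weighted voom 1, none of them a member. At an unadjusted p under 0.05 there were 366 genes, of which 204 (1.28%) were higher in PBBI. Of the 51 members tested, 12 reached it and were higher and 0 were lower. In all, 44 of the 51 were higher, with a median log2 fold change of 0.49 against -0.01 over all genes. With no filter, so that all 65 members entered, 55 were higher, 11 had an unadjusted p under 0.05 and the median was 0.46. No member had every PBBI rat above every sham rat, a pattern seen in 15 genes (0.0943%). The count of 12 was 4 without PBBI rat 81, 5 without sham rat 82 and 7 without PBBI rat 88. The share of all genes higher at that p was then 1.03%, 0.871% and 1.09%. The titles of both samples of rat 81 and of the contralateral sample of rat 82 hold the letters PFC, and the other titles do not. Whether these samples differ in the part of cortex taken cannot be told from the labels used here, and its part in these counts was not tested.

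Ms4a6c (ENSRNOG00000047349) had the smallest contralateral p. It had 0.130, 0.115, 0.182, 0.228 and 0.183 CPM in the contralateral sham rats and 0.155 to 0.783 with a median of 0.527 CPM in the PBBI rats, where 5 of 6 were above every sham rat and rat 90 was not. The log2 fold change was 1.61 ± 0.41 (SE), with an unadjusted edgeR p of 0.00161 and a two-sided exact permutation p of 0.0108 over the 462 ways to divide the 11 rats. These levels were low, and in sham rats Ms4a6c differed between hemispheres by a similar amount, 1.43 ± 0.54 (SE) on the log2 scale, higher ipsilaterally. C1qc (ENSRNOG00000012804) had 32.8, 46.4, 32.8, 33.6 and 54.8 CPM in sham and 51.4 to 72.3 with a median of 62.0 CPM in PBBI rats, at 0.60 ± 0.18, with p = 0.00564 by edgeR and 0.00649 by the exact test. Here 4 of 6 PBBI rats exceeded sham rat 94, the highest of the sham group. Cd14 (ENSRNOG00000017819) had 0.484, 1.02, 0.820, 0.943 and 1.14 CPM and 0.748 to 6.92 with a median of 1.47 CPM, at 1.48 ± 0.54, with p = 0.0154 by edgeR and 0.0693 by the exact test. Its fold rested on rat 81, at 6.92 CPM, and was 0.83 without that rat.

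Cd63 (ENSRNOG00000007650) had 82.4, 108, 103, 76.6 and 81.6 CPM in contralateral sham and 92.5 to 173 with a median of 131 CPM in PBBI rats, at 0.51 ± 0.19, with p = 0.0161 by edgeR and 0.0238 by the exact permutation test. Cd44 (ENSRNOG00000006094) had 11.9, 13.2, 7.35, 19.3 and 9.41 CPM and 10.5 to 30.9 with a median of 22.1 CPM, at 0.78 ± 0.31, with p = 0.024 by edgeR and 0.0671 by the exact permutation test. PBBI rats 83, 85 and 96 lay within the sham range of Cd44, and rats 90 and 96 within that of Cd63. The other 7 were Tlr10 at 0.99 ± 0.42, Fcgr3a at 1.00 ± 0.41, Nlrc4 at 0.86 ± 0.36, Clec4a3 at 0.64 ± 0.27, Ms4a6a at 0.55 ± 0.25, Casp4 at 0.54 ± 0.22 and C1qb at 0.49 ± 0.22. Their unadjusted edgeR p were between 0.0301 and 0.0478. An unadjusted p under 0.05 in each of the 11 fits that left out a rat was found for Ms4a6c, C1qc and Cd63. By weighted voom (limma), 6 of the 12 were also under it, Ms4a6c and C1qc among them, and 6 were not, among them Cd63, at a log2 fold change of 0.25. All 12 had an adjusted edgeR p of 1.00.

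By class, the contralateral medians were 1.08 over the 2 MS4A members tested, 0.78 for pattern recognition receptors, 0.61 for the inflammasome, 0.54 for complement, 0.50 for Fc receptors and adaptors, 0.48 for C-type lectins and 0.46 for the broadly expressed antigens. They were 0.42 for paired immunoglobulin-like receptors, 0.32 for the 3 lymphocyte antigens tested and 0.16 for co-stimulation, and Casp9 was at -0.09 ± 0.19 and Cd3eap at -0.01 ± 0.21. Siglec10 at -0.97 ± 0.66 and Cd34 at -0.61 ± 0.30 were the lowest contralateral members. Of the named markers, Gfap at 1.57, Plac8 at 1.35 and Msr1 at 1.83 had an unadjusted edgeR p under 0.05 contralaterally. The neutrophil sums there were 12.4 to 55.5 CPM in sham and 13.8 to 61.5 CPM in PBBI, and those of monocytes and macrophages 174 to 203 and 174 to 284 CPM. Gfap had 713 ± 270 CPM (SD, n = 5) and 2118 ± 1314 CPM (SD, n = 6), and Aldh1l1, which was not among those, 15.7 ± 3.7 and 13.5 ± 3.8 CPM. Their part in the contralateral values was not tested.

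Within the injured rats the ipsilateral hemisphere held more than the contralateral in all 6 rats in 48 of 65 members. Of the 60 members that passed the filter it did so in 44, against 1667 of all 15973 genes (10.4%). It held less in all 6 rats in 1 member, Casp9, and in 1894 genes (11.9%). The median log2 difference was 1.68 over 60 members, given as a description because the ipsilateral samples chose the list. It was 4.68 ± 0.88 for Trem1, 3.94 ± 0.75 for Cd14 and 3.81 ± 0.65 for Lilrb4, and 0.96 ± 0.24 for Tlr2. In sham rats the median was 0.12 over 48 members. Named after their values were seen, Ly86, Nlrp12 and Pycard were higher ipsilaterally in all 5 sham rats, and Clec4e was lower in all 5. Of the 48 members that passed the filter there, 2 were higher in all 5 and 0 lower, and of all 15747 genes 259 (1.64%) and 358 (2.27%), so the members' counts were near the background. Ms4a6c had the widest sham difference, 1.43 ± 0.54, higher ipsilaterally in 4 of 5, with 1.12 against 0.182 CPM in rat 86.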

How the data were processed

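Cortical RNA of 6 PBBI and 5 sham rats was analysed from both hemispheres, 22 samples, and the labels gave the injury, the hemisphere and the number of the rat. The authors depleted ribosomal RNA, made stranded libraries, aligned read pairs with STAR 2.4.2a to Rnor_6.0 and counted them on Ensembl genes with featureCounts 1.4.3-p1. They deposited raw counts. Strand and multimapping settings are not given in the sources used here. Of the low counts, 1 to 19, even values made up 60.8% to 69.6% per sample, so counts may not be independent reads and no counting interval is given.

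Names came from the identifier and symbol columns of a supplementary table, whose fold changes and p-values were not used. The members, lists and tests were chosen with earlier results of these data known. Each hemisphere was fitted across all genes with the quasi-likelihood test of edgeR 4.0.16 (R 4.3.3), with TMM scaling, filterByExpr and Benjamini-Hochberg adjustment (threshold 0.05). The standard error was the log2 fold change divided by the square root of F. For log2 CPM the prior count was 2. Single members had a two-sided exact permutation test contralaterally. Same-numbered samples come from the same rat, and their deviations correlated at r = 0.298 to 0.819 in 11 of 11 rats.

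Alternatives were DESeq2 1.42.0, RLE scaling, no filter, weighted voom (limma 3.58.1), all 22 samples in the same fit, the rat as a block between hemispheres, and leaving out each rat. The week in which each rat had surgery was not used here. Leaving out PBBI rat 85 and sham rat 86 together was added after seeing the data. Values are given for the 2 members of each class with the highest mean CPM and the 2 with the largest ipsilateral change, those lower in ipsilateral PBBI, the 5 with the smallest contralateral p, and others in counts or ranges. Some further members are named with a value chosen after it was seen. Red cell, neuron, oligodendrocyte and choroid plexus markers had no named gene. Planned protein motifs were not used here, and some members enter the counts only and are not reported here by name. The scripts were tested on simulated data.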

Additional observations from a re-analysis of the deposited data

Results flagged for a closer look

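Among 31 members with a mean of at least 1 CPM, 124 groups of rats were checked for a rat that lay far from the others of its group, and 2 such values were found. Chance alone flags about 1 in 20 such groups, so 2 in 124 is no more than chance would give. Clec4a3, a lectin of the DCIR group, was at 31.7 CPM in the ipsilateral hemisphere of PBBI rat 96, against 10.1 to 14.8 CPM in the other 5 PBBI rats. Pycard, the inflammasome adaptor, was at 50.1 CPM in the ipsilateral hemisphere of PBBI rat 85, against 10.1 to 15.3 CPM in the other 5. Rat 85 is also the rat with the highest Tyrobp and the lowest scaling factor. The cause of either value was not tested.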

How the results depend on the processing

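Of the ipsilateral and contralateral summaries and single members, none changed direction under the alternatives. The ipsilateral count of 36 members past the threshold was 60 by DESeq2 and 55 with all 22 samples in the fit, and 12 to 46 when each rat was left out. In the same order the count over all genes, 753 in the main fit, was 1702, 1655 and 316 to 2186. The study made its list with DESeq2, so the count of 60 was largely set in advance. The contralateral count of 12 at an unadjusted p under 0.05 was 7 with all 22 samples in the fit and 4 to 17 when each rat was left out. The share of all genes higher at that p was 1.28% in the main fit, 1.21% with all 22 samples and 0.871% to 3.85% when each rat was left out. The members' count was 15 by DESeq2 and 12 by weighted voom, where 341 (1.52%) and 976 (6.14%) of all genes were called higher. It was 11 without PBBI rat 85 and sham rat 86, an alternative chosen after seeing the data. No contralateral member was past the adjusted threshold under any of these settings. Contralateral members higher in PBBI numbered 39 to 47 when each rat was left out. The medians were then 1.73 to 2.18 ipsilaterally, 0.38 to 0.57 contralaterally, 1.52 to 1.79 between hemispheres within PBBI and 0.05 to 0.20 within sham. With the rat as a block (paired hemispheres) the median differences were 1.58 within PBBI and 0.06 within sham. The causes of these shifts were not tested. Members with few counts, such as Ms4a12, Nlrp10 and Ly6d, limit what depth can show.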
